A study of Homo sapiens with 12 samples.

Results

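The genes described here are 36 genes of the cellular response to low oxygen, chosen by name from the deposited gene tables. They comprise factors of the hypoxia-inducible factor (HIF) pathway and genes known as HIF targets. All 36 were found among the 58735 genes of the count table, and all 36 passed the filter on low counts that left 19342 genes for testing. RNA had been sequenced from 2 human hepatocellular carcinoma lines, each grown flat and in 2 kinds of Matrigel culture, with 2 biological replicates per group and 12 libraries in all. Huh7 is a line that keeps many hepatocyte features, and HLF is a poorly differentiated line with mesenchymal features. Both lines are labelled wild-type, carry no engineered allele, received no agent other than the culture itself, and were fed the same medium with serum in all groups. Each line is a long-established tumour line, so replicates are cultures of that line and not separate patients.

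The 6 groups are Huh7 2D, Huh7 Inject-Embed, Huh7 Mix-Embed, HLF 2D, HLF Inject-Embed and HLF Mix-Embed. Flat (2D) cells were harvested on day 2, near confluence. In Inject-Embed, 4000 Huh7 or 2000 HLF cells per well were placed by pipette tip into the middle of a set gel of diluted Matrigel. In Mix-Embed, 20000 Huh7 or 10000 HLF cells per well were stirred into Matrigel and layered over a gel that had already set. Both gel cultures were harvested between day 6 and day 8. Seeding number, days in culture and the form of the culture therefore differ together between 2D and gel, and their parts in any difference cannot be told apart. Between the gel cultures of a line, seeding number and embedding method likewise differ together. Line and seeding number differ together when the gel cultures of Huh7 and HLF are compared. Those parts cannot be told apart either. The oxygen level in the wells or in the cell clusters is not given in the sources used here.

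In cells with ample oxygen, the prolyl hydroxylases EGLN1 and EGLN3 mark the HIF alpha subunits HIF1A and EPAS1 (HIF-2 alpha) for destruction by the VHL ubiquitin ligase. When oxygen falls, the alpha subunits last longer, pair with ARNT and bind short hypoxia response elements near their target genes. The targets raise glucose uptake and glycolysis, hold pyruvate back from mitochondria, remove mitochondria, change collagen processing and send signals for vessel growth. Control of the alpha subunits is mostly at the level of the protein, so the mRNA of HIF1A or EPAS1 is not a measure of HIF activity. In the liver, oxygen falls along the blood flow through each lobule, and growing liver tumours often contain poorly perfused regions.

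Library totals ran from 12325877 to 16041906 counts. Levels below are CPM, read counts scaled to a common library size with the TMM correction for library composition, and are given for replicate 1 and then replicate 2. On this scale 3 counts in a library, the most that a count of 0 allows, come to 0.178 to 0.255 CPM, which covers counting error only. Levels of different genes are set side by side only in FPKM, which also divides by gene length. Huh7 libraries held 38157 to 49312 CPM summed over 10 hepatocyte markers, against 32.4 to 169 CPM in HLF, where TTR and APOB had no counts in any group. HLF held 4261 to 4801 CPM over 10 mesenchymal markers, against 178 to 265 in Huh7, where TNC and MSN had no counts. Over 13 blood, endothelial and stromal markers the sums were 14.2 to 19.5 CPM in Huh7 and 90.2 to 111 CPM in HLF, and HBB had no counts in any group. In bulk RNA, fewer cells expressing a gene and less RNA of it per cell cannot be told apart. Mitochondrial ribosomal RNA took 0.29% to 0.31% of counts in 2D libraries and 0.47% to 0.60% in gel libraries of both lines, and its part in the results below was not tested. For 15 of the 36 genes another counted gene overlaps on the opposite strand, and whether the counting used strand is not given in the sources used here. A partner on either strand with over 5% of a gene's counts, present for 9 genes, is named beside that gene.

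Promoter sequence was examined first, because HIF recognises the short cores ACGTG and GCGTG. RefSeq windows of 300 bases on GRCh38.p14, from 250 bases before to 50 bases after an annotated transcript start, were held for 31 of the 36 genes. NDRG1, BNIP3L, LOXL2, VEGFA and HILPDA are named here without sequence. On either strand, ACGTG or GCGTG stood in 38 of the 45 windows of these genes (84.4%), beside 17012 of 35116 windows of all genes (48.4%). ACGTG alone stood in 51.1% of the windows of these genes and in 21.4% of all windows, and GCGTG alone in 60% and 36.5%. Counted by gene, 27 of 31 (87.1%) had a match in at least 1 window, beside 52.4% of all genes. The 4 genes with a window and no match in it were ARNT, EGLN3, P4HA2 and TMEM45A. A match of 5 letters is a description of the sequence, and no binding was measured. The 6 windows below are shown because, among genes with a match, these have the smallest adjusted p in Huh7 Mix-Embed against Huh7 Inject-Embed, the within-line contrast in which the most genes of the set were called. Each is written 5′ to 3′ on the strand of its gene, with the matched bases of either strand in capitals, so that a core on the opposite strand reads CACGT or CACGC.
BNIP3: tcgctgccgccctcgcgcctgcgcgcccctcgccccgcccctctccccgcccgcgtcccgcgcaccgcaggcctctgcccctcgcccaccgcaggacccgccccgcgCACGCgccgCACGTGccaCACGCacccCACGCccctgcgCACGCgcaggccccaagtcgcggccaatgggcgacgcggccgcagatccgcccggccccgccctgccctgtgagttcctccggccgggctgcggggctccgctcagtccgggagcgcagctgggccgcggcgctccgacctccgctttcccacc
PFKFB4: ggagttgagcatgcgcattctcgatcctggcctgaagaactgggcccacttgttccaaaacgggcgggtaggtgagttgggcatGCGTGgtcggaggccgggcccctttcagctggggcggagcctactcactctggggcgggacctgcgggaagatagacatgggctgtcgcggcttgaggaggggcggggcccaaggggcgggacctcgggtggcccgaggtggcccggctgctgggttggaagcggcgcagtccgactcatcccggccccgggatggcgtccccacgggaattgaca
P4HA1: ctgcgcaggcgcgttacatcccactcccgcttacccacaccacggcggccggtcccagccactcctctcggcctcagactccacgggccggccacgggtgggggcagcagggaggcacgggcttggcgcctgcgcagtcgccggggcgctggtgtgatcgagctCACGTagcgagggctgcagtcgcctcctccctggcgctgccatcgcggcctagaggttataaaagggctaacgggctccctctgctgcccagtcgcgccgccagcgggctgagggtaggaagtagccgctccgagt
PDK1: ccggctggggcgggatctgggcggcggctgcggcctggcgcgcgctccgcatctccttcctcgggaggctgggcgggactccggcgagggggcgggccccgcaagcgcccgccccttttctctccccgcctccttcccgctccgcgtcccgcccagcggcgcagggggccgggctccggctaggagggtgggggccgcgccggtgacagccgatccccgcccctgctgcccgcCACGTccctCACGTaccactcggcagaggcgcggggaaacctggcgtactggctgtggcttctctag
DDIT4: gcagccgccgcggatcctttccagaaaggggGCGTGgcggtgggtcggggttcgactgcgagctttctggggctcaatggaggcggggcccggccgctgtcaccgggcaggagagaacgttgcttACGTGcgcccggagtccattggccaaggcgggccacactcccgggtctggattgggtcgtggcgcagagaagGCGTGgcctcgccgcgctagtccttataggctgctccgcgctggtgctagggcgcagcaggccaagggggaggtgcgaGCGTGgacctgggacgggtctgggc
PPFIA4: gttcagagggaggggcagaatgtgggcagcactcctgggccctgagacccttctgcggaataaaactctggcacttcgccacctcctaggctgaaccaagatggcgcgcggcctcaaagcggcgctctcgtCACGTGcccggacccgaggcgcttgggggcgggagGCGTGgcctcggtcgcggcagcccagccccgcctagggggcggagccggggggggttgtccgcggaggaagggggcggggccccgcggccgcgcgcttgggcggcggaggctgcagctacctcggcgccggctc

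The BNIP3 window (chr10:131981874-131982173, minus strand) held 6 matches, packed between 143 and 104 bases before the transcript start. A pair of these are the opposite strands of a single CACGTG and share bases. The PFKFB4 window (chr3:48556754-48557053, minus strand) held a single GCGTG, 166 bases before the start. The P4HA1 window (chr10:73096817-73097116, minus strand) held a single ACGTG on the opposite strand, 86 bases before the start. In the PDK1 window (chr2:172555840-172556139, plus strand), opposite-strand ACGTG began 17 and 8 bases before the start. The DDIT4 window (chr10:72273674-72273973, plus strand) held 4 matches, at 219, 125 and 53 bases before the start and 26 bases after it. In the PPFIA4 window (chr1:203026241-203026540, plus strand), the letters CACGTG gave matches on both strands 119 and 118 bases before the start, and GCGTG stood 84 bases before it. PDK1, HIF1A and MXI1 each have a further RefSeq window without a match. That of PDK1 (chr2:172555123-172555422) lies at the gene start of the deposited tables, 172555373. The PDK1 window printed above belongs to a transcript start downstream of it.

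Across the whole set, the gene-set pattern differed between the lines. A gene is called higher or lower, or said to have risen or fallen, where edgeR's quasi-likelihood test gave a Benjamini-Hochberg adjusted p under 0.05 over all 19342 genes. In Huh7 Inject-Embed against 2D, 27 of the 36 genes fell and 2 rose, beside 16.7% of all genes that fell and 13.2% that rose. The median log2 fold change was -0.73 over the 36 genes and -0.0064 over all genes. In Huh7 Mix-Embed against 2D, the balance was opposite: 20 rose and 5 fell, beside 11.2% and 10.6% of all genes, with medians of 0.37 and 0.00049. The 5 lower genes became 3 without Huh7 2D replicate 1 or Huh7 Mix-Embed replicate 2, and 3 and 2 with limma on log2(FPKM + 1) and log2(FPKM + 0.1). In Inject-Embed, the 2 higher genes became 1 without Huh7 Inject-Embed replicate 2. The contrast of the gel cultures, which does not use the 2D libraries, was the widest. In Huh7 Mix-Embed against Inject-Embed, 30 rose and 0 fell, beside 13.4% and 9.55% of all genes, with medians of 0.92 and 0.028. At an unadjusted p under 0.05 edgeR counted 1 lower gene there, and DESeq2 counted 0 after adjustment.

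In HLF, both gel cultures moved the set upwards. In HLF Inject-Embed against 2D, 21 of the 36 genes rose and 3 fell, beside 9.09% and 8.86% of all genes, with medians of 0.43 and 0. In HLF Mix-Embed against 2D, 19 rose and 6 fell, beside 14.4% and 14.6% of all genes. The median was 0.56, or 0.43 without EGLN3, CA9 and CA12, which had 3 counts or fewer in a group, beside 0.0039 over all genes. The 6 lower genes became 3 with limma at either FPKM offset, and the 3 lower genes of Inject-Embed became 1 with limma on log2(FPKM + 0.1). In HLF Mix-Embed against Inject-Embed, 7 rose, 4 fell and 25 were not called, beside 4.71% and 3.56% of all genes, with medians of -0.0068 and 0. That last count fell to 7 called genes, 3 higher and 4 lower, without HLF Inject-Embed replicate 1, and the higher genes numbered 4 without HLF Mix-Embed replicate 2. In all 6 within-line comparisons, every called gene had both libraries of one group above both libraries of the other. The share over all genes was not counted, and such separation of 2 libraries from 2 adds no separate support to a call.

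The same picture stood in single libraries. Relative to the mean of its line's 2D libraries on the log2(CPM + 0.5) scale, the median of the 36 genes was -0.62 and -0.67 in the Huh7 Inject-Embed libraries, with 6 and 5 genes above the 2D mean. It was 0.33 and 0.39 in the Huh7 Mix-Embed libraries, with 29 and 28 genes above. Over the 33 genes with more than 3 counts in each HLF group, the median was 0.42 and 0.43 in HLF Inject-Embed, and 0.35 and 0.49 in HLF Mix-Embed. Between 23 and 27 of the 33 genes were above the 2D mean in those 4 libraries.

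**Figure D1:**
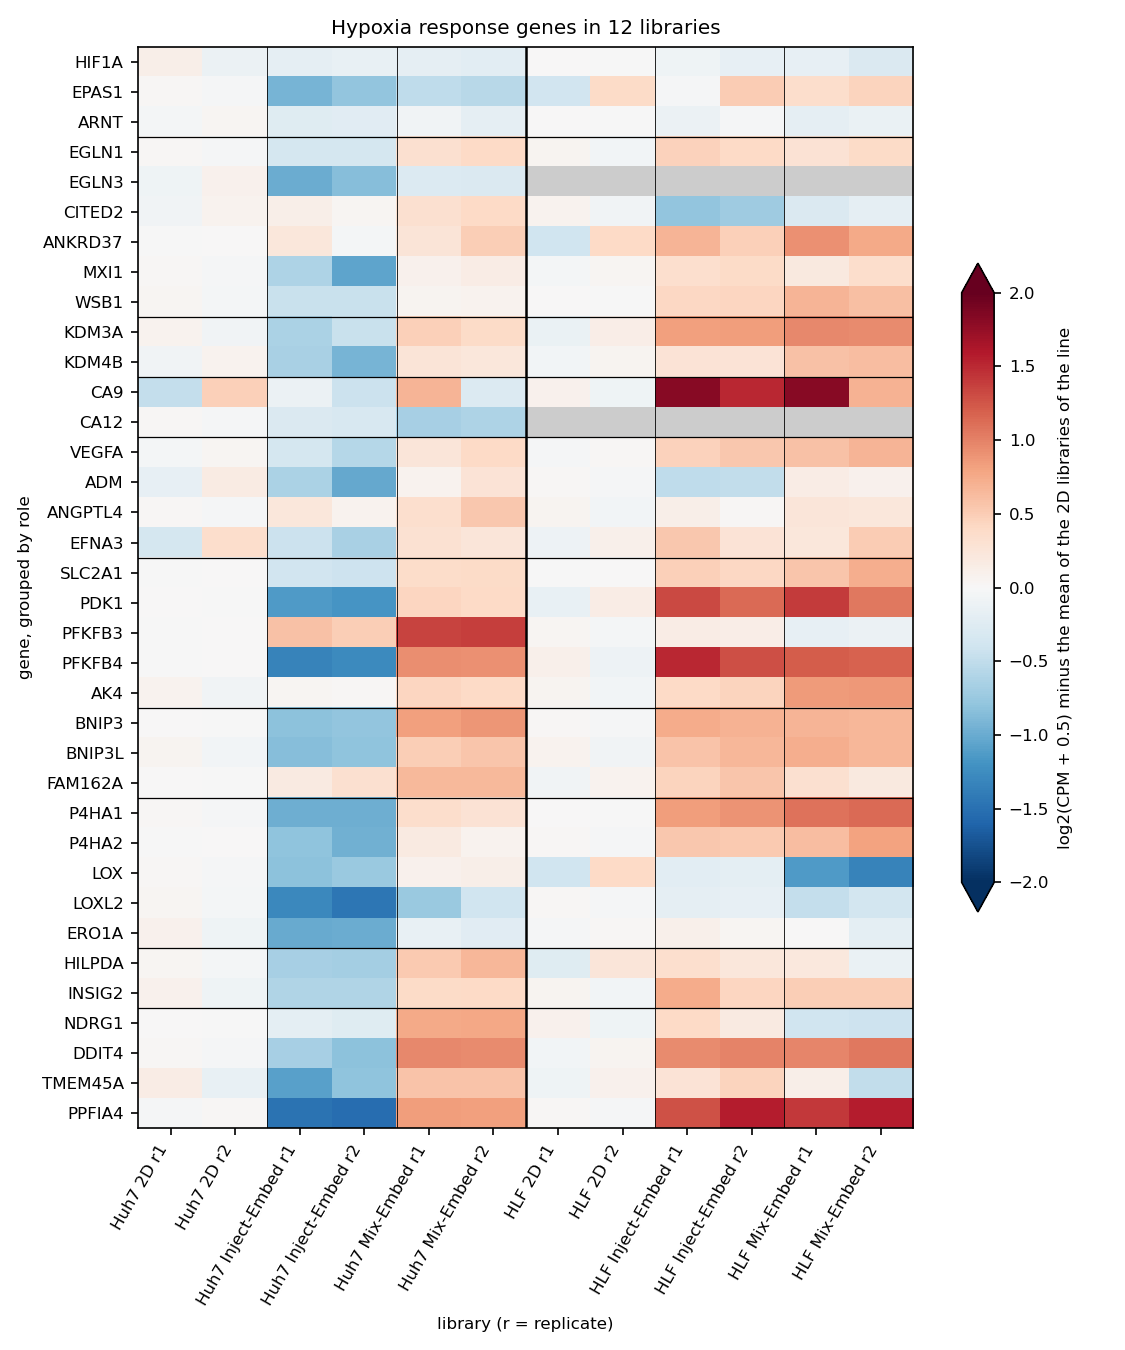
Heat map of the 36 genes (rows, grouped by role) in the 12 libraries (columns); colour is log2(CPM + 0.5) minus the mean of the same line's 2D libraries, and grey marks EGLN3 and CA12 in HLF, which had 3 counts or fewer in every HLF group. Most rows are below 2D in both Huh7 Inject-Embed libraries and above it in both Huh7 Mix-Embed libraries, while in HLF most rows are above 2D in both gel cultures.

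Among the 3 HIF subunit genes, none rose in a gel culture against 2D in either line; in Huh7 all 3 fell in Inject-Embed and 2 fell in Mix-Embed. HIF1A (chr14:61695513-61748259, plus strand), the widely expressed oxygen-regulated subunit, was at 257 and 220 CPM in Huh7 2D, 209 and 214 in Inject-Embed, and 211 and 207 in Mix-Embed. The HLF libraries held 255.7 and 251.2 CPM in 2D, 238 and 227 in Inject-Embed, and 227 and 206 in Mix-Embed. The 2D libraries were the highest in each line, but the Huh7 2D replicates lay further apart than the gel groups. Its log2 fold change in Huh7 was -0.17 ± 0.06 (standard error, SE) in Inject-Embed (edgeR adjusted p = 0.0158) and -0.19 ± 0.06 in Mix-Embed (adjusted p = 0.00923). Without Huh7 2D replicate 1 these values were -0.056 and -0.079, and both calls were lost. The first was also lost without Huh7 Inject-Embed replicate 1 (-0.16), the second without Huh7 Mix-Embed replicate 2 (-0.19). Limma at either FPKM offset called neither (adjusted p 0.0847 to 0.207). The Inject-Embed call was lost too with library totals in place of TMM (adjusted p = 0.0559) or the Huh7 libraries alone (adjusted p = 0.07). In HLF Mix-Embed the log2 fold change was -0.23 ± 0.06 (edgeR adjusted p = 0.00125), or -0.15 without HLF Mix-Embed replicate 2. That call was lost with limma at either FPKM offset (adjusted p = 0.121 and 0.13).

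EPAS1 (chr2:46293667-46386703, plus strand), the subunit HIF-2 alpha, showed the largest culture change of the subunits in Huh7. It was at 275 and 265 CPM in Huh7 2D, 142 and 157 in Inject-Embed, and 190 and 184 in Mix-Embed. All 4 gel libraries were below both 2D libraries, and Inject-Embed was below Mix-Embed. The log2 fold change was -0.85 ± 0.07 in Inject-Embed (edgeR adjusted p = 1.1e-13) and -0.53 ± 0.07 in Mix-Embed (adjusted p = 4.3e-08). Between the gel cultures it was 0.32 ± 0.07 higher in Mix-Embed (edgeR adjusted p = 0.000446), a call that DESeq2 did not make (adjusted p = 0.31). In HLF the gene stood at 2.97 and 5.42 CPM in 2D, 3.96 and 5.96 in Inject-Embed, and 5.26 and 5.7 in Mix-Embed, with overlapping groups and no call. The direction of EPAS1 in Huh7 Mix-Embed was thus opposite to that of most genes in the set.

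ARNT (chr1:150809705-150876768, minus strand), the shared partner of the alpha subunits, varied little. It was at 51.1 and 53.4 CPM in Huh7 2D, 43.9 and 44.7 in Inject-Embed, and 49.5 and 45.9 in Mix-Embed. HLF libraries were at 83.2 and 81.5 CPM in 2D, 76.1 and 81.2 in Inject-Embed, and 72.4 and 75.2 in Mix-Embed. Only the fall in Huh7 Inject-Embed was called (-0.24 ± 0.08, edgeR adjusted p = 0.015), and the adjusted p was 0.104, 0.105 and 0.0582 without Huh7 2D replicate 2, Inject-Embed replicate 1 and Inject-Embed replicate 2.

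Of the 6 genes for oxygen sensing and feedback, 4 fell in Huh7 Inject-Embed and 5 were higher in Huh7 Mix-Embed than in Inject-Embed, while in HLF 3 rose and 1 fell in each gel culture against 2D. EGLN1 (chr1:231363751-231425044, minus strand), the main oxygen-sensing prolyl hydroxylase, was at 99.8 and 96.7 CPM in Huh7 2D, 77.2 and 77.3 in Inject-Embed, and 123 and 129 in Mix-Embed. Levels in HLF were 137 and 127 CPM in 2D, 181 and 174 in Inject-Embed, and 162 and 173 in Mix-Embed. The 3 Huh7 groups did not overlap, and Inject-Embed was lowest in Huh7 and highest in HLF. The difference between the HLF gel cultures was not called. The log2 fold change in Inject-Embed was -0.35 ± 0.06 in Huh7 (edgeR adjusted p = 2.27e-05) and 0.43 ± 0.06 in HLF (adjusted p = 1.13e-07). In Mix-Embed the gene rose in both lines, by 0.36 ± 0.06 in Huh7 and 0.34 ± 0.06 in HLF (edgeR adjusted p = 1.01e-05 and 5.07e-06).

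EGLN3 (chr14:33924231-34462774, minus strand), a hydroxylase that is itself a HIF target, was expressed in Huh7 alone. It was at 14.9 and 16.8 CPM in Huh7 2D, 7.64 and 8.5 in Inject-Embed, and 13 and 12.8 in Mix-Embed. Inject-Embed was below both other groups, with a log2 fold change of -0.97 ± 0.18 against 2D (edgeR adjusted p = 4.12e-05). Mix-Embed was 0.67 ± 0.19 above Inject-Embed (edgeR adjusted p = 0.00612), or 0.59 (adjusted p = 0.085) without Huh7 Inject-Embed replicate 1. In HLF the 2 libraries of a group together held 0 counts in 2D, 1 in Inject-Embed and 1 in Mix-Embed, too few for a fold between them. Against a floor of 3 counts over HLF 2D, Huh7 2D was at least 169-fold higher, with 472 counts. SPTSSA, a gene annotated on the same strand within the same interval, had 2417, 1591 and 2332 counts in Huh7 2D, Inject-Embed and Mix-Embed. Like EGLN3, with 472, 201 and 350 counts, it was lowest in Inject-Embed, and its part was not tested. In HLF 2D it had 1055 counts.

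CITED2, which competes with HIF for its coactivators, moved differently from the rest. It rose in Huh7 Mix-Embed (0.36 ± 0.06, edgeR adjusted p = 8.69e-06), was not called in Huh7 Inject-Embed (0.08 ± 0.06), and fell in HLF Inject-Embed (-0.75 ± 0.06, adjusted p = 1.04e-13). Its HLF means were 190.6 ± 13 CPM in 2D, 113.3 ± 4.6 in Inject-Embed and 162.3 ± 8.7 in Mix-Embed (SD, n = 2). The fall in HLF Mix-Embed (-0.23 ± 0.06, edgeR adjusted p = 0.00156) had an adjusted p of 0.111 without HLF 2D replicate 1 and of 0.092 without HLF Mix-Embed replicate 1. MXI1, a MYC antagonist, and WSB1, a ubiquitin ligase subunit, fell in Huh7 Inject-Embed (-0.83 ± 0.13 and -0.45 ± 0.05) and were 0.95 ± 0.13 and 0.52 ± 0.05 higher in Mix-Embed than in Inject-Embed. WSB1 rose in both HLF gel cultures (0.43 ± 0.05 and 0.64 ± 0.05). MXI1 rose only slightly in HLF Inject-Embed (0.37 ± 0.13, edgeR adjusted p = 0.0471), a call lost without any 1 of the 4 libraries compared (adjusted p 0.114 to 0.242). ANKRD37, an ankyrin-repeat HIF target, had group means of 1.67 to 4.18 CPM, with replicates far apart in HLF 2D (2.22 ± 1.04 CPM, SD, n = 2). Its only call was a rise in HLF Mix-Embed (0.91 ± 0.30, edgeR adjusted p = 0.0185), which was lost without HLF 2D replicate 1 (0.49, adjusted p = 0.35) or HLF Mix-Embed replicate 1 (adjusted p = 0.0986). UFSP2, on the opposite strand of ANKRD37, had 989 to 1064 counts in the HLF groups against 71 to 131 for ANKRD37.

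Both histone demethylase genes, KDM3A and KDM4B, fell in Huh7 Inject-Embed and rose in the other 3 gel groups. The enzymes they encode remove methyl groups from histone H3 and need oxygen to do so. KDM4B was at 87.8 and 96.9 CPM in Huh7 2D, 58.5 and 48 in Inject-Embed, and 111 and 108 in Mix-Embed. HLF cells had 30.2 and 32.3 CPM in 2D, 37.7 and 37.9 in Inject-Embed, and 47.1 and 48.2 in Mix-Embed. Its libraries separated fully by group in both lines, with Mix-Embed highest in each. Mix-Embed exceeded Inject-Embed by 1.04 ± 0.08 on the log2 scale in Huh7 (edgeR adjusted p = 2.11e-14) and by 0.33 ± 0.08 in HLF (adjusted p = 0.00623). The smaller KDM4B calls were lost without a single library: Huh7 Mix-Embed against 2D (0.25 ± 0.07) without Huh7 2D replicate 1 or Mix-Embed replicate 1 (adjusted p = 0.181 and 0.0897), and HLF Inject-Embed against 2D (0.28 ± 0.09) without HLF 2D replicate 1 or either Inject-Embed replicate (adjusted p = 0.2, 0.0809 and 0.0987). The HLF contrast of the gel cultures was lost without either HLF Inject-Embed replicate or Mix-Embed replicate 2 (adjusted p = 0.0571, 0.0513 and 0.0758). KDM3A changed by -0.54 ± 0.08 in Huh7 Inject-Embed, 0.43 ± 0.07 in Huh7 Mix-Embed, 0.83 ± 0.08 in HLF Inject-Embed and 0.95 ± 0.08 in HLF Mix-Embed (edgeR adjusted p between 1.27e-13 and 1.07e-05).

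The carbonic anhydrase genes CA9 and CA12, whose products regulate pH at the cell surface, were low or absent in places where other genes of the set were high. CA9 (chr9:35673856-35681159, plus strand), a widely used tissue marker of hypoxia, was at 0.0666 and 0.606 CPM in Huh7 2D, 0.227 and 0.085 in Inject-Embed, and 0.766 and 0.156 in Mix-Embed. In HLF it was at 0.0619 and 0 CPM in 2D, 1.36 and 1 in Inject-Embed, and 1.37 and 0.356 in Mix-Embed. The Huh7 groups overlapped, and the HLF gel libraries were all above both HLF 2D libraries. The HLF groups held 1, 37 and 26 counts, a ratio to 2D of 37.8 in Inject-Embed (95% counting interval 6.37 to 1532) and 26.4 in Mix-Embed (4.34 to 1084). Both were called (edgeR adjusted p = 0.000848 and 0.00262), but the Mix-Embed call was lost without HLF 2D replicate 2 or HLF Mix-Embed replicate 1 (adjusted p = 0.0566 and 0.134), and DESeq2 gave no adjusted p for either. ARHGEF39 lies over CA9 on the opposite strand and had 862, 746 and 705 counts in the same HLF groups, far more than CA9. CA12 was at 17.75 ± 0.44 CPM in Huh7 2D, 14.25 ± 0.19 in Inject-Embed and 11.22 ± 0.2 in Mix-Embed (SD, n = 2), and it fell in Mix-Embed against 2D (-0.66 ± 0.16, edgeR adjusted p = 0.00177). In HLF it had 1, 0 and 2 counts. CA12 was the only gene of the set that was lower in both Huh7 Mix-Embed libraries than in both Inject-Embed libraries (-0.35 ± 0.17, edgeR adjusted p = 0.142). That difference was called with limma on log2(FPKM + 1) (adjusted p = 0.0155) and in a fit of the 6 Huh7 libraries alone (adjusted p = 0.0438).

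Of the 4 genes for secreted or surface signals, VEGFA gave the clearest reversal between the lines and ADM was lowest in Inject-Embed in both. VEGFA (chr6:43770184-43786487, plus strand), the principal growth factor for vessels, was at 75.8 and 79.7 CPM in Huh7 2D, 61 and 51.9 in Inject-Embed, and 92.3 and 103 in Mix-Embed. The HLF libraries held 51.5 and 53 CPM in 2D, 72.5 and 76.1 in Inject-Embed, and 78.5 and 83.9 in Mix-Embed. No groups overlapped within a line, but the difference between the HLF gel cultures was not called. Inject-Embed was below 2D in Huh7 and above it in HLF. On the log2 scale the change in Inject-Embed was -0.46 ± 0.08 in Huh7 (edgeR adjusted p = 5.08e-06) and 0.51 ± 0.07 in HLF (adjusted p = 1.02e-06). In Mix-Embed it was 0.33 ± 0.07 in Huh7 (edgeR adjusted p = 0.000511) and 0.64 ± 0.07 in HLF (adjusted p = 2.6e-09), and the Huh7 value was 0.24 (adjusted p = 0.0567) without Huh7 Mix-Embed replicate 2.

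ADM, the vasodilator peptide adrenomedullin, was at 14.5 and 18.1 CPM in Huh7 2D, 10.2 and 7.74 in Inject-Embed, and 17 and 19.7 in Mix-Embed. HLF libraries were at 59.9 and 58.6 CPM in 2D, 41.7 and 42.1 in Inject-Embed, and 65.9 and 62.8 in Mix-Embed. Inject-Embed was lowest in both lines, so ADM in HLF went against most genes of the set. The fall in Inject-Embed was -0.85 ± 0.14 in Huh7 and -0.50 ± 0.09 in HLF (edgeR adjusted p = 4.3e-06 and 5.76e-05), and the rise from Inject-Embed to Mix-Embed was 1.02 ± 0.14 and 0.62 ± 0.09 (adjusted p = 1.84e-07 and 4.07e-06). EFNA3, an ephrin ligand, was at 1.8 and 3.23 CPM in Huh7 2D, 1.66 and 1.36 in Inject-Embed, and 3.13 and 2.96 in Mix-Embed. Levels in HLF were 2.91 and 3.47 CPM in 2D, 4.86 and 3.95 in Inject-Embed, and 3.83 and 4.75 in Mix-Embed. Its only within-line call was the Huh7 difference of the gel cultures (1.00 ± 0.34, edgeR adjusted p = 0.0273). That call was lost without any 1 of the 4 libraries compared (adjusted p 0.0705 to 0.166) and with DESeq2 (adjusted p = 0.0667). ANGPTL4, an inhibitor of lipoprotein lipase, had no within-line call with edgeR, with group means of 4.688 to 6.531 CPM in Huh7 and 14.08 to 16.72 CPM in HLF. With limma on log2(FPKM + 1) it was called higher in Mix-Embed than in 2D in Huh7 (0.31, adjusted p = 0.0237) and in HLF (0.27, adjusted p = 0.0336). RAB11B-AS1, on its opposite strand, had 73, 41 and 73 counts in Huh7 2D, Inject-Embed and Mix-Embed, against 140, 132 and 177.

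The 5 genes for glucose use and energy all rose in Huh7 Mix-Embed against 2D and in HLF Inject-Embed against 2D. In Huh7 Inject-Embed, 3 of them fell, 1 rose and 1 was not called. SLC2A1 (chr1:42925375-42959176, minus strand), the glucose transporter GLUT1, was at 153 and 155 CPM in Huh7 2D, 118 and 115 in Inject-Embed, and 198 and 201 in Mix-Embed. HLF cells had 64.9 and 66.2 CPM in 2D, 91.1 and 87.7 in Inject-Embed, and 96.4 and 108 in Mix-Embed. Inject-Embed lay below 2D in Huh7 and above it in HLF, and Mix-Embed was the highest group in both. The log2 fold change in Inject-Embed was -0.40 ± 0.06 in Huh7 and 0.45 ± 0.06 in HLF (edgeR adjusted p = 5.48e-07 and 3.87e-07), and in Mix-Embed 0.38 ± 0.06 and 0.65 ± 0.06 (adjusted p = 1.35e-06 and 1.74e-11). The HLF difference of the gel cultures (0.20 ± 0.06, edgeR adjusted p = 0.0327) was lost without either Inject-Embed replicate (adjusted p = 0.0869 and 0.253) or Mix-Embed replicate 2 (0.11, adjusted p = 0.518).

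PDK1 (chr2:172555373-172608669, plus strand), the kinase that shuts pyruvate out of mitochondria, moved further. It was at 119 and 118 CPM in Huh7 2D, 53.9 and 51.9 in Inject-Embed, and 160 and 156 in Mix-Embed. In HLF it was at 10.4 and 12.9 CPM in 2D, 29.8 and 26.2 in Inject-Embed, and 31.2 and 24.6 in Mix-Embed. The Huh7 groups stood far apart, whereas the HLF gel groups overlapped each other well above 2D. On the log2 scale the change in Inject-Embed was -1.16 ± 0.08 in Huh7 (edgeR adjusted p = 6.27e-16) and 1.26 ± 0.11 in HLF (adjusted p = 2.71e-12). Mix-Embed exceeded Inject-Embed by 1.58 ± 0.08 in Huh7 (edgeR adjusted p = 1.98e-20) and differed by -0.01 ± 0.10 in HLF.

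PFKFB3 and PFKFB4 encode related enzymes that set the level of fructose 2,6-bisphosphate, an activator of glycolysis, and they behaved differently from each other. PFKFB4 (chr3:48517684-48562015, minus strand) was at 93.5 and 95.1 CPM in Huh7 2D, 36.9 and 38.8 in Inject-Embed, and 180 and 177 in Mix-Embed. The HLF libraries held 15.1 and 13.2 CPM in 2D, 40.9 and 35.2 in Inject-Embed, and 33.3 and 32.7 in Mix-Embed. Inject-Embed was lowest in Huh7 and highest in HLF, with no overlap, but the difference between the HLF gel cultures was not called. The log2 fold change in Inject-Embed was -1.32 ± 0.08 in Huh7 and 1.42 ± 0.09 in HLF (edgeR adjusted p = 3.45e-18 and 3.51e-16), and Huh7 Mix-Embed exceeded Huh7 Inject-Embed by 2.24 ± 0.07 (adjusted p = 2.31e-26). PFKFB3 (chr10:6144934-6254644, plus strand) was at 85.4 and 87.1 CPM in Huh7 2D, 130 and 122 in Inject-Embed, and 221 and 225 in Mix-Embed. HLF libraries were at 208 and 197 CPM in 2D, 224 and 223 in Inject-Embed, and 180 and 186 in Mix-Embed. It was the only gene of the group that rose in Huh7 Inject-Embed, and the only 1 of the 5 that fell in HLF Mix-Embed. The Huh7 changes were 0.55 ± 0.06 in Inject-Embed and 1.37 ± 0.06 in Mix-Embed (edgeR adjusted p = 2.04e-10 and 2.52e-23). The HLF changes against 2D were small, 0.14 ± 0.05 and -0.14 ± 0.05 (edgeR adjusted p = 0.0496 and 0.0299), and each was lost without any 1 of its 4 libraries (adjusted p 0.0632 to 0.359 and 0.0501 to 0.295). HLF Mix-Embed was below HLF Inject-Embed by a called difference (-0.28 ± 0.05, edgeR adjusted p = 0.000115).

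AK4, a mitochondrial adenylate kinase, was not called in Huh7 Inject-Embed (0.04 ± 0.05) and rose in the other 3 gel groups, by 0.41 ± 0.05 in Huh7 Mix-Embed, 0.43 ± 0.07 in HLF Inject-Embed and 0.86 ± 0.07 in HLF Mix-Embed (edgeR adjusted p between 5.29e-14 and 9.09e-06). Its means were 387.6 ± 29, 397.2 ± 2.5 and 515.7 ± 5.3 CPM in Huh7 2D, Inject-Embed and Mix-Embed (SD, n = 2). AK4 and PFKFB3 were thus the members of this group that did not fall in Huh7 Inject-Embed.

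**Figure D2:**
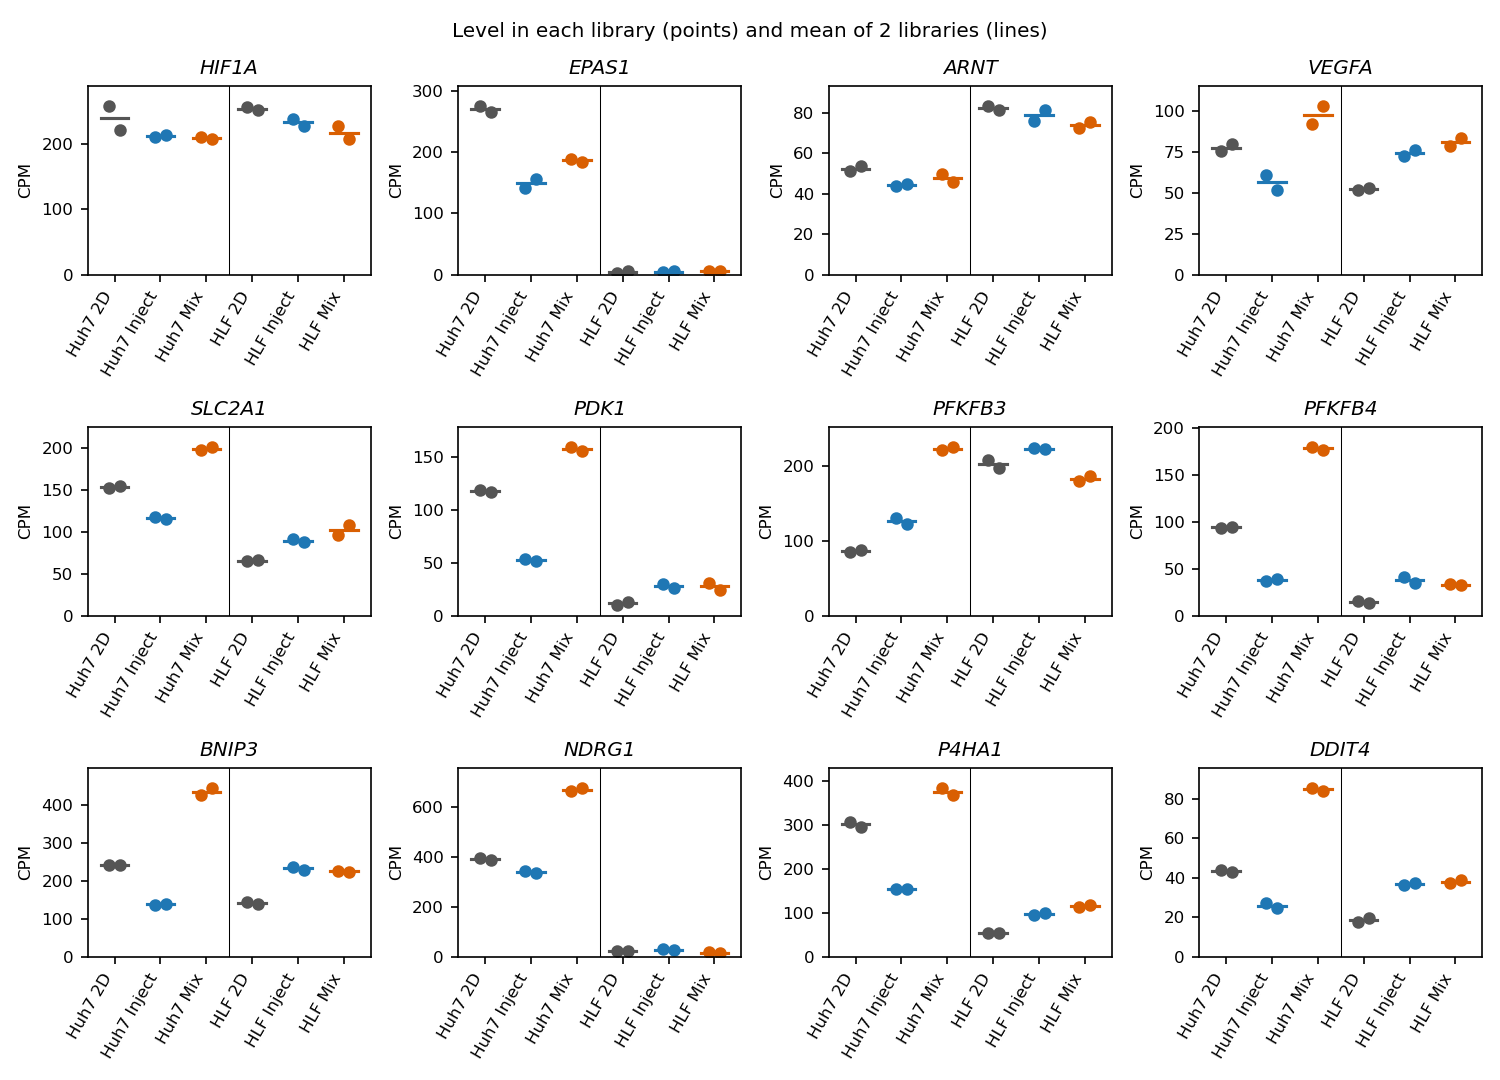
CPM of 12 genes of the set (1 panel each, axis from 0) in the 12 libraries; each point is a library, grouped by line and culture, and the bar is the mean of 2. In Huh7, PDK1, PFKFB4 and BNIP3 are lowest in Inject-Embed and highest in Mix-Embed, in HLF the same genes are higher in both gel cultures than in 2D, and PFKFB3 follows neither order.

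The 3 genes for mitophagy and mitochondria rose in both gel cultures of HLF and in Huh7 Mix-Embed. BNIP3 and BNIP3L encode receptors that lead mitochondria to autophagy, and both fell in Huh7 Inject-Embed. BNIP3 (chr10:131966455-131982013, minus strand) was at 242 and 242 CPM in Huh7 2D, 137 and 140 in Inject-Embed, and 426 and 445 in Mix-Embed. Levels in HLF were 144 and 140 CPM in 2D, 237 and 229 in Inject-Embed, and 228 and 225 in Mix-Embed. The replicates nearly coincided, and the gel cultures lay far apart in Huh7 and close together in HLF. On the log2 scale the change in Inject-Embed was -0.80 ± 0.05 in Huh7 and 0.72 ± 0.05 in HLF (edgeR adjusted p = 4.47e-17 and 1.41e-15). In Mix-Embed it was 0.85 ± 0.05 and 0.68 ± 0.05 (edgeR adjusted p = 2.13e-18 and 5.26e-15), and the Huh7 difference of the gel cultures was 1.65 ± 0.05 (adjusted p = 1.71e-27), the smallest adjusted p of the set in that contrast.

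BNIP3L was at 137 and 127 CPM in Huh7 2D, 72.5 and 75.5 in Inject-Embed, and 186 and 195 in Mix-Embed. HLF cells had 99.5 and 90.8 CPM in 2D, 142 and 152 in Inject-Embed, and 157 and 150 in Mix-Embed. Its order of groups in Huh7 was that of BNIP3, with a Mix-Embed to Inject-Embed difference of 1.36 ± 0.06 (edgeR adjusted p = 1.5e-21). PNMA2, on the opposite strand of BNIP3L, had 206, 93 and 183 counts in Huh7 2D, Inject-Embed and Mix-Embed, lowest in Inject-Embed as BNIP3L was with 3943, 1846 and 5169. In HLF it had 1711, 1621 and 1610 counts, against 3047, 4607 and 4830 for BNIP3L. FAM162A, a mitochondrial protein gene, rose in all 4 gel groups against 2D, by 0.25 ± 0.06 and 0.65 ± 0.06 in Huh7 Inject-Embed and Mix-Embed and by 0.52 ± 0.09 and 0.27 ± 0.10 in HLF. Its smaller calls were lost without a library: Huh7 Inject-Embed without its replicate 2 (0.19, edgeR adjusted p = 0.0739), and HLF Mix-Embed without HLF 2D replicate 1 or Mix-Embed replicate 1 (adjusted p = 0.273 and 0.182). WDR5B, on the opposite strand of FAM162A, had 286, 338 and 312 counts in HLF 2D, Inject-Embed and Mix-Embed, in the same order as the 560, 785 and 663 of FAM162A. Its part in that result was not tested.

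All 5 genes for collagen processing and protein folding fell in Huh7 Inject-Embed, and all 5 were higher in Huh7 Mix-Embed than in Inject-Embed. P4HA1 and P4HA2 encode the catalytic subunits of the prolyl hydroxylases that stabilise collagen. P4HA1 (chr10:73007217-73096974, minus strand) was at 307 and 295 CPM in Huh7 2D, 153 and 153 in Inject-Embed, and 383 and 368 in Mix-Embed. In HLF it was at 53.5 and 52.7 CPM in 2D, 95.5 and 99.7 in Inject-Embed, and 113 and 117 in Mix-Embed. No groups overlapped within either line. The log2 fold change in Inject-Embed was -0.97 ± 0.05 in Huh7 and 0.88 ± 0.06 in HLF (edgeR adjusted p = 1.24e-19 and 7.21e-16), and in Mix-Embed 0.32 ± 0.05 and 1.11 ± 0.06 (adjusted p = 2.3e-06 and 9.27e-20). HLF Mix-Embed exceeded Inject-Embed by 0.23 ± 0.06 (edgeR adjusted p = 0.00355), which was lost without HLF Inject-Embed replicate 1 or Mix-Embed replicate 2 (adjusted p = 0.0862 and 0.0693). P4HA2 was at 68 and 68.3 CPM in Huh7 2D, 39 and 34.9 in Inject-Embed, and 76.8 and 71.9 in Mix-Embed. The HLF libraries held 24.3 and 23.6 CPM in 2D, 35.1 and 34.6 in Inject-Embed, and 37.1 and 42.3 in Mix-Embed. It fell by 0.88 ± 0.08 in Huh7 Inject-Embed, was not called in Huh7 Mix-Embed (0.13 ± 0.08), and rose in both HLF gel cultures (0.54 ± 0.09 and 0.73 ± 0.09). SLC22A4, on the opposite strand of P4HA2, had 314, 434 and 454 counts in HLF 2D, Inject-Embed and Mix-Embed, in the same order as the 766, 1092 and 1256 of P4HA2, and its part was not tested. In Huh7 it had 19, 38 and 54 counts, against 2034, 926 and 2027.

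LOX and LOXL2 encode oxidases that cross-link collagen and elastin, and each belonged almost wholly to 1 line. LOX (chr5:122063195-122078360, minus strand) was at 628 and 614 CPM in Huh7 2D, 350 and 370 in Inject-Embed, and 662 and 672 in Mix-Embed. HLF libraries were at 2.73 and 5.1 CPM in 2D, 3.18 and 3.2 in Inject-Embed, and 1.43 and 1.19 in Mix-Embed. The gel cultures were in opposite order in the 2 lines. Mix-Embed against Inject-Embed was 0.89 ± 0.05 in Huh7 (edgeR adjusted p = 1.6e-17) and -1.29 ± 0.26 in HLF (adjusted p = 0.000486), where the groups held 41 and 100 counts. SRFBP1, on the opposite strand of LOX, had 813, 579 and 653 counts in HLF 2D, Inject-Embed and Mix-Embed. Against 2D, LOX fell in Huh7 Inject-Embed (-0.79 ± 0.05, edgeR adjusted p = 5.72e-16) and in HLF Mix-Embed (-1.58 ± 0.24, adjusted p = 1.42e-06). LOXL2 was at 12.9 and 12.3 CPM in Huh7 2D, 4.84 and 4.34 in Inject-Embed, and 7.31 and 9.49 in Mix-Embed. Levels in HLF were 427 and 416 CPM in 2D, 372 and 376 in Inject-Embed, and 304 and 326 in Mix-Embed. It was the only gene of the set called lower in all 4 gel groups against 2D, by 1.45 ± 0.14 and 0.60 ± 0.12 in Huh7 and by 0.17 ± 0.05 and 0.42 ± 0.05 in HLF. The HLF Inject-Embed call (edgeR adjusted p = 0.0109) was lost without any 1 of its 4 libraries (adjusted p 0.0527 to 0.13), and the HLF difference of the gel cultures (-0.25 ± 0.05, adjusted p = 0.000768) without Mix-Embed replicate 1 (adjusted p = 0.0655). ENTPD4, which overlaps LOXL2 on the same strand, had 3904, 2598 and 2756 counts in Huh7 2D, Inject-Embed and Mix-Embed, lowest in Inject-Embed like the 377, 115 and 227 of LOXL2, and its part was not tested. In HLF it had 2226, 2189 and 2311 counts, against 13505, 11724 and 9940.

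ERO1A, an oxidase that helps form disulfide bonds, was at 169 and 152 CPM in Huh7 2D, 79.5 and 80.6 in Inject-Embed, and 145 and 138 in Mix-Embed. HLF cells had 102 and 105 CPM in 2D, 111 and 106 in Inject-Embed, and 104 and 90.1 in Mix-Embed. Huh7 Inject-Embed was well below the other Huh7 groups, with -1.004 ± 0.07 in Inject-Embed (edgeR adjusted p = 1.9e-16) and no call in HLF. The smaller fall in Huh7 Mix-Embed (-0.19 ± 0.06, edgeR adjusted p = 0.026) was lost without Huh7 2D replicate 1 or either Mix-Embed replicate (adjusted p = 0.38, 0.0546 and 0.216).

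Both genes for lipid and sterol handling fell in Huh7 Inject-Embed and rose in Huh7 Mix-Embed. HILPDA, a lipid droplet protein gene, was at 39.5 and 37.3 CPM in Huh7 2D, 23.9 and 23.8 in Inject-Embed, and 55.3 and 61.1 in Mix-Embed. In HLF it was at 6.07 and 8.76 CPM in 2D, 9.34 and 8.65 in Inject-Embed, and 8.54 and 6.59 in Mix-Embed, with overlapping groups and no call. The Huh7 difference of the gel cultures was 1.28 ± 0.12 (edgeR adjusted p = 5.27e-12). INSIG2, which holds back sterol synthesis, went from 71.51 ± 5.7 CPM in Huh7 2D to 46.8 ± 0.18 in Inject-Embed and 93.54 ± 1.1 in Mix-Embed (SD, n = 2). It rose in both HLF gel cultures, by 0.61 ± 0.11 and 0.50 ± 0.11 (edgeR adjusted p = 4.82e-05 and 0.000416).

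The remaining 4 genes, NDRG1, DDIT4, TMEM45A and PPFIA4, all fell in Huh7 Inject-Embed and all rose in Huh7 Mix-Embed. PPFIA4, a liprin scaffold gene, had the largest fold change of the set in both Huh7 contrasts with Inject-Embed. It was at 21.6 and 22.1 CPM in Huh7 2D, 7.49 and 7.31 in Inject-Embed, and 39.5 and 39 in Mix-Embed. The HLF libraries held 2.54 and 2.46 CPM in 2D, 6.74 and 8.4 in Inject-Embed, and 7.45 and 8.43 in Mix-Embed. The groups were wide apart in Huh7, and in HLF both gel groups lay above 2D and overlapped each other. On the log2 scale the change in Inject-Embed was -1.56 ± 0.15 in Huh7 and 1.60 ± 0.20 in HLF (edgeR adjusted p = 1.46e-11 and 2.01e-08), and Huh7 Mix-Embed exceeded Inject-Embed by 2.40 ± 0.14 (adjusted p = 8.59e-18). DDIT4, an inhibitor of the growth kinase mTORC1, was at 44 and 42.9 CPM in Huh7 2D, 27.4 and 24.5 in Inject-Embed, and 85.5 and 84.4 in Mix-Embed. HLF libraries were at 17.8 and 19.4 CPM in 2D, 36.2 and 37.3 in Inject-Embed, and 37.2 and 39 in Mix-Embed. It rose in HLF by nearly the same amount in both gel cultures (0.98 ± 0.09 and 1.04 ± 0.09, edgeR adjusted p = 3.24e-11 and 2.88e-12), and in Huh7 the gel cultures differed by 1.71 ± 0.09 (adjusted p = 5.2e-20).

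NDRG1, a stress-response gene strongly induced by hypoxia in many cells, was at 397 and 389 CPM in Huh7 2D, 342 and 334 in Inject-Embed, and 663 and 675 in Mix-Embed. Levels in HLF were 23.4 and 20.9 CPM in 2D, 29.2 and 25.1 in Inject-Embed, and 16.6 and 16.4 in Mix-Embed. Mix-Embed was the highest group in Huh7 and the lowest in HLF, without overlap. Mix-Embed against 2D was 0.77 ± 0.05 in Huh7 (edgeR adjusted p = 1.45e-16) and -0.43 ± 0.09 in HLF (adjusted p = 0.000176). The rise in HLF Inject-Embed (0.29 ± 0.08, edgeR adjusted p = 0.00712) was lost without HLF 2D replicate 2 or Inject-Embed replicate 1 (adjusted p = 0.159 and 0.267). TMEM45A, a membrane protein gene, was at 28.8 and 23.4 CPM in Huh7 2D, 12 and 14.7 in Inject-Embed, and 38.9 and 39 in Mix-Embed. HLF cells had 2.6 and 3.02 CPM in 2D, 3.5 and 4.01 in Inject-Embed, and 3.07 and 1.84 in Mix-Embed, with no call. The Huh7 gel cultures differed by 1.55 ± 0.14 (edgeR adjusted p = 8.51e-12).

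**Figure D3:**
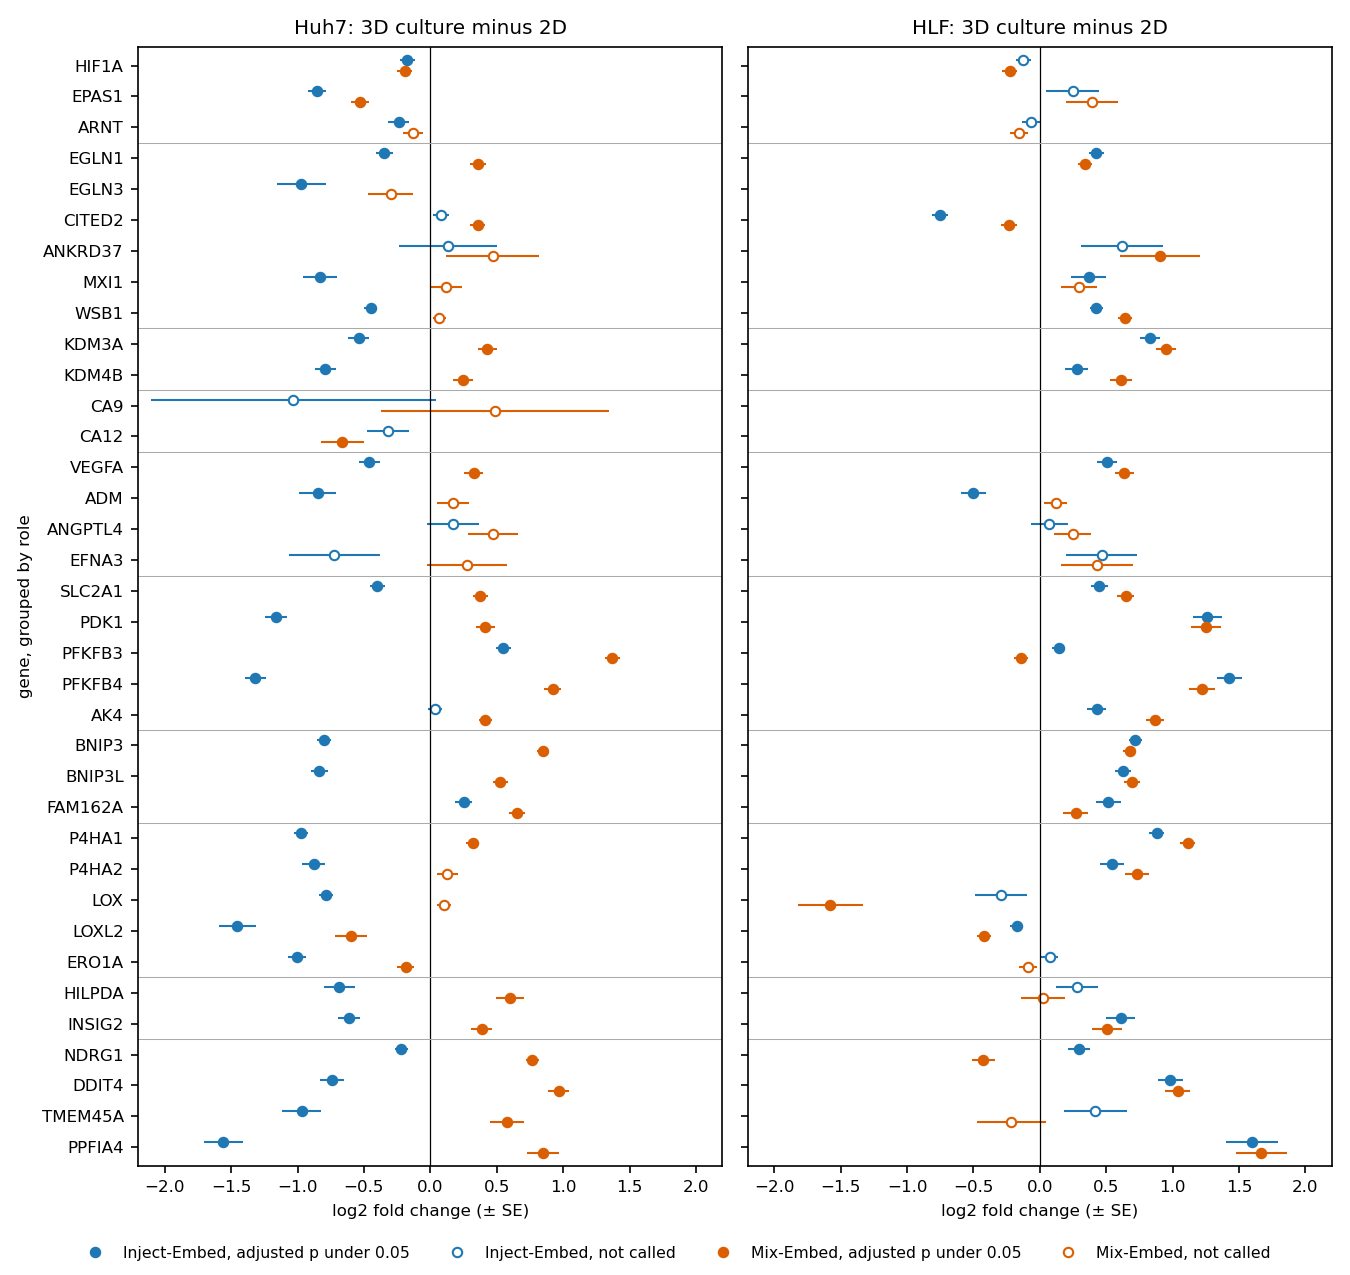
Log2 fold change against 2D of each gene (rows) in Inject-Embed and Mix-Embed, with Huh7 and HLF in separate panels; bars are ± 1 SE, filled points were called (edgeR adjusted p under 0.05), and EGLN3, CA9 and CA12 are not drawn in HLF because a group had 3 counts or fewer. In Huh7 the Inject-Embed points lie mostly left of 0 and the Mix-Embed points mostly right of it, and in HLF both sets lie mostly right of 0.

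The starting levels of the lines differed for most of the set. In 2D, 26 of the 36 genes were higher in Huh7, 7 were lower and 3 were not called, beside 38.1% and 39.2% of all genes. The median log2 difference was 1.23, or 1.06 without EGLN3, CA9 and CA12, beside -0.024 over all genes. LOX stood at 104 ± 2.1 FPKM in Huh7 and 0.733 ± 0.32 FPKM in HLF (SD, n = 2), the highest of the 36 genes in Huh7. P4HA1 followed in Huh7 with 90.8 ± 2.9 FPKM, against 17.8 FPKM in HLF. In HLF the order began with CITED2 at 78.1 FPKM, LOXL2 at 76.8 ± 1.3 FPKM, which do not differ beyond their spread, and HIF1A at 51.1 ± 0.56 FPKM.

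Huh7 held more RNA of EPAS1 by 6.01 ± 0.11 on the log2 scale, of LOX by 7.31 ± 0.09 and of NDRG1 by 4.15 ± 0.06 (edgeR adjusted p = 5.55e-39, 3.16e-45 and 1.68e-41). HLF held more LOXL2 (-5.06 ± 0.07), ADM (-1.86 ± 0.10), ANGPTL4 (-1.59 ± 0.17) and PFKFB3 (-1.23 ± 0.05). EPAS1 stood at 34.5 ± 1.1 FPKM in Huh7 and 0.597 ± 0.25 FPKM in HLF, whereas HIF1A stood at 43.2 ± 4.9 and 51.1 ± 0.56 FPKM. The HIF1A difference was -0.09 ± 0.06 (edgeR adjusted p = 0.153), and it was called lower in Huh7 with library totals in place of TMM (-0.24, adjusted p = 0.000149). CA12 had 530 counts in Huh7 2D and 1 in HLF 2D, a ratio of 568 (95% counting interval 102 to 22487). CA9 had 10 counts and 1, a ratio of 10.7 (1.53 to 465), and its call (edgeR adjusted p = 0.0363) was lost without Huh7 2D replicate 2 (adjusted p = 0.709) or HLF 2D replicate 2 (adjusted p = 0.195).

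**Figure D4:**
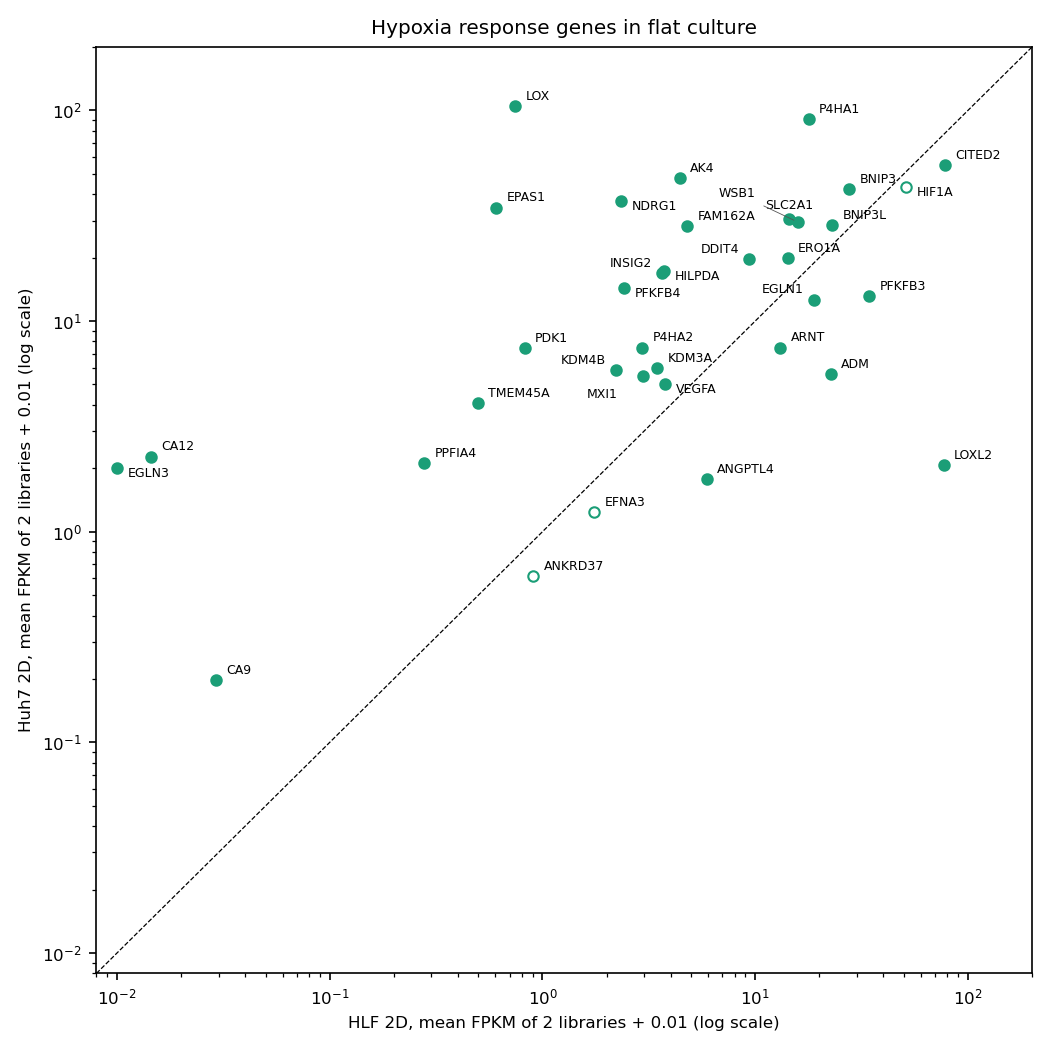
Mean FPKM + 0.01 of each gene in 2D, HLF on the horizontal and Huh7 on the vertical axis, both on a log scale, with the line of equal level dashed; each point is the mean of 2 libraries per line, and filled points are genes whose line difference was called. Points lie mostly above the dashed line, with LOX, EPAS1, EGLN3 and CA12 far above it and LOXL2 far below it.

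Whether the lines responded differently was tested as an interaction, the Huh7 log2 fold change minus the HLF one. For Inject-Embed against 2D, 25 of the 36 genes had a lower signed log2 fold change in Huh7 than in HLF, 2 a higher one and 9 were not called, beside 13.1% and 11.7% of all genes. The median difference was -1.07 over the 36 genes and -0.037 over all genes. The lower call of CA9, with 1 count in HLF 2D, was lost without Huh7 2D replicate 2 (-3.74). The lower call of EFNA3 was lost with DESeq2 (-1.19, adjusted p = 0.0954). It was also lost without any of several single libraries, among them Huh7 2D replicate 2 (-0.71). PPFIA4 (-3.16 ± 0.25), PFKFB4 (-2.74 ± 0.12), PDK1 (-2.42 ± 0.14), P4HA1 (-1.85 ± 0.08), DDIT4 (-1.73 ± 0.13) and BNIP3 (-1.52 ± 0.07) had the largest well-measured differences, with edgeR adjusted p between 1.09e-22 and 6.13e-14. The 2 genes with a higher signed value in Huh7 were CITED2 (0.83 ± 0.08, edgeR adjusted p = 1.29e-10) and PFKFB3 (0.41 ± 0.08, adjusted p = 5.37e-05). Of the 29 genes called in Huh7 and the 24 called in HLF, 17 fell in Huh7 and rose in HLF. That is 58.6% of the Huh7 calls and 70.8% of the HLF calls. How many of all genes did so was not counted, so these shares describe the 36 genes alone. Among the 17, the HLF rises of MXI1, KDM4B and NDRG1 were lost when some single library was left out, as given with each gene. With limma at either FPKM offset, the HLF rises of MXI1 and KDM4B and the Huh7 fall of NDRG1 were not called. Only FAM162A and PFKFB3 rose in both lines, and only ADM and LOXL2 fell in both.

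For Mix-Embed against 2D the lines were closer. The interaction was called for 18 genes, 7 higher and 11 lower in Huh7, beside 10.2% and 10.2% of all genes, with medians of -0.17 and -0.0018. The 7 higher genes became 4 without HLF 2D replicate 2 or HLF Mix-Embed replicate 2. Both lines had 25 called genes, of which 15 rose in both, 2 fell in both, and 3 rose in Huh7 and fell in HLF. Thus 68% of the calls of each line had the same direction. The matching share over all genes was not counted. The 3 were CITED2, PFKFB3 and NDRG1, with differences of 0.59 ± 0.08, 1.52 ± 0.08 and 1.19 ± 0.10. The HLF falls of CITED2 and PFKFB3 within this count were lost when some single library was left out, as given with each gene. PDK1 and P4HA1 rose in both lines, by less in Huh7 (differences of -0.84 ± 0.13 and -0.79 ± 0.08). EPAS1 fell in Huh7 and was not called in HLF (difference -0.92 ± 0.21), and LOX fell in HLF and was not called in Huh7 (difference 1.68 ± 0.25). For 7 of the 18 genes, EPAS1, FAM162A, HILPDA, KDM4B, SLC2A1, TMEM45A and VEGFA, the call was lost when some single library was left out (adjusted p 0.0531 to 0.509). The highest of these was HILPDA without HLF 2D replicate 2 (0.27), and EPAS1 was lost without HLF 2D replicate 1 (-0.55, adjusted p = 0.0679).

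For Mix-Embed against Inject-Embed the interaction was called higher in Huh7 for 24 genes and lower for 0, beside 5.95% and 4.62% of all genes, with medians of 0.92 and 0.021. The lower count was 1 at an unadjusted p under 0.05 in edgeR and 0 with DESeq2, and 1 gene, CITED2, was called lower with RLE scaling (-0.25, adjusted p = 0.0454) or library totals (-0.31, adjusted p = 0.0107). CITED2 was also called lower without Huh7 Inject-Embed replicate 2, HLF Inject-Embed replicate 2 or HLF Mix-Embed replicate 1 (edgeR adjusted p = 0.0482, 0.0246 and 0.0109). PFKFB4 (2.44 ± 0.11), PPFIA4 (2.33 ± 0.22), LOX (2.18 ± 0.26), TMEM45A (2.18 ± 0.28) and NDRG1 (1.70 ± 0.10) had the largest differences. The higher call of WSB1 was lost without HLF Inject-Embed replicate 2 (0.25) or HLF Mix-Embed replicate 2 (0.23). Of the 30 genes called in Huh7 and the 11 called in HLF, 7 rose in both and 4 rose in Huh7 and fell in HLF. Those 4 were PFKFB3, LOX, LOXL2 and NDRG1. The HLF fall of LOX was not called with limma on log2(FPKM + 1), nor that of LOXL2 with limma at either FPKM offset. Here too, shared and opposite directions were not counted over all genes. Across the genes with more than 3 counts in every group compared, Pearson's r between the log2 fold changes of the lines was -0.395 for Inject-Embed against 2D (33 genes), 0.324 for Mix-Embed against 2D (33 genes) and -0.197 for Mix-Embed against Inject-Embed (34 genes). These coefficients describe genes, which are not independent replicates, and the value over all genes was not computed. The first 2 use the same 2D libraries, and the third uses the gel libraries of both.

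**Figure D5:**
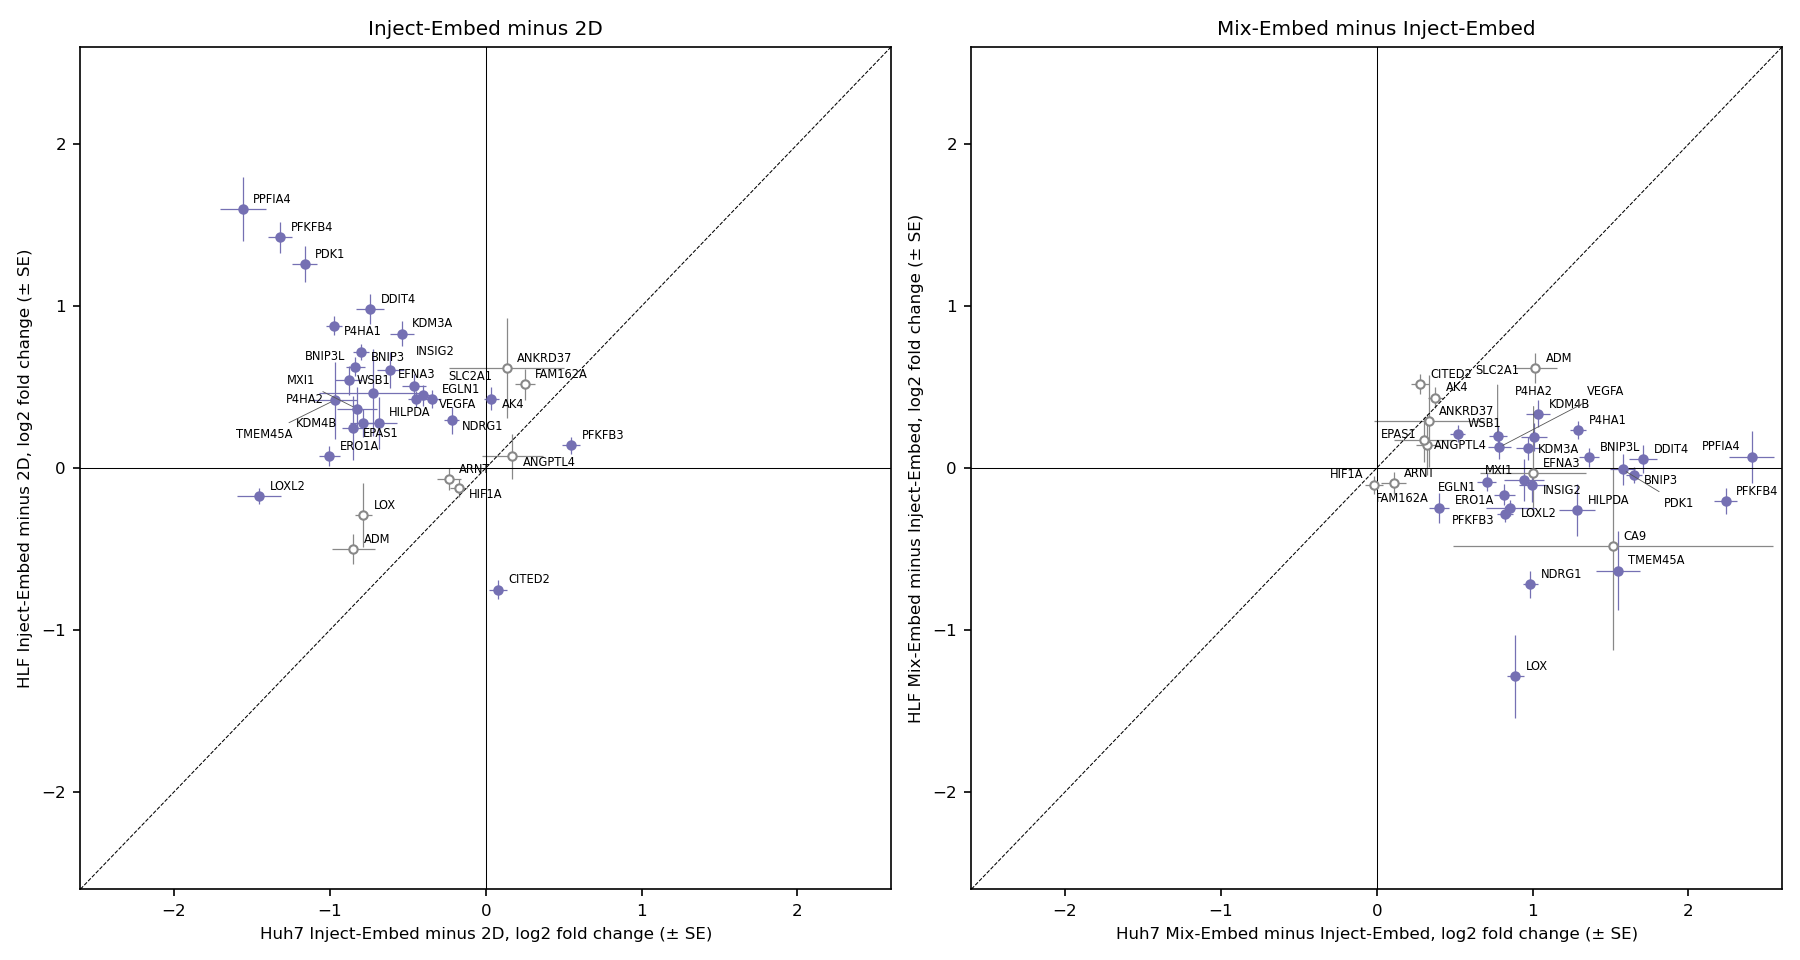
Log2 fold change in Huh7 (horizontal) against HLF (vertical) for Inject-Embed minus 2D (left, 33 genes) and Mix-Embed minus Inject-Embed (right, 34 genes); bars are ± 1 SE, filled points had a called line difference, and the dashed line marks equal response. On the left most points are at the upper left, with PPFIA4, PFKFB4 and PDK1 furthest out, and on the right most spread along the Huh7 axis near 0 in HLF.

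Pathway genes outside the set were read from 2 further lists. Of 14 other regulators of HIF, among them VHL, EGLN2 and the coactivators, 13 were tested. In Huh7, edgeR called 0 of 13 in Inject-Embed and 0 of 13 in Mix-Embed against 2D, with 2 higher and 1 lower in each at an unadjusted p under 0.05, and DESeq2 also called 0; of all genes, 13.2% and 11.2% were called higher and 16.7% and 10.6% lower. Between the Huh7 gel cultures, ELOC, a subunit of the VHL ligase, was lower in Mix-Embed (-0.25 ± 0.08, edgeR adjusted p = 0.0151). In HLF, the coactivator CREBBP fell in Inject-Embed (-0.22 ± 0.05, edgeR adjusted p = 0.00255), and ELOC and CUL2, another ligase subunit, fell in Mix-Embed (-0.29 ± 0.08 and -0.26 ± 0.08, adjusted p = 0.00394 and 0.0106). HIF3A, a further alpha subunit, rose in HLF Mix-Embed from 0.219 ± 0.14 to 1.17 ± 0.2 CPM (SD, n = 2; edgeR adjusted p = 0.0105), a call that DESeq2 did not make. CREBBP and EP300, both coactivators, were higher in HLF Mix-Embed than in Inject-Embed (0.27 ± 0.05 and 0.20 ± 0.06, edgeR adjusted p = 0.000585 and 0.0151). The calls in HLF thus numbered 1 of 13 in Inject-Embed, where 9.09% of all genes rose and 8.86% fell. They numbered 3 of 13 in Mix-Embed, where 14.4% of all genes rose and 14.6% fell. Between the gels they numbered 2 of 13, where 4.71% of all genes were higher and 3.56% lower.

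Of 55 other known HIF targets, 51 were tested. In Huh7 Inject-Embed 3 rose and 29 fell, beside 13.2% and 16.7% of all genes, with medians of -0.40 and -0.0064. In Huh7 Mix-Embed 28 rose and 2 fell, beside 11.2% and 10.6% of all genes, with medians of 0.26 and 0.00049. Between the Huh7 gel cultures 36 were higher and 1 lower in Mix-Embed, beside 13.4% and 9.55% of all genes, with medians of 0.74 and 0.028. In HLF Inject-Embed 22 rose and 8 fell, beside 9.09% and 8.86% of all genes, with medians of 0.25 and 0. In HLF Mix-Embed 22 rose and 11 fell, beside 14.4% and 14.6% of all genes, with medians of 0.21 and 0.0039. Between the HLF gel cultures 3 were higher and 11 lower in Mix-Embed, beside 4.71% and 3.56% of all genes, both medians being 0. The line difference for Inject-Embed against 2D was lower in Huh7 for 31 of them and higher for 3, beside 13.1% and 11.7% of all genes, with medians of -0.64 and -0.037. Many of these lists' genes have other regulators as well, and the lists were drawn up with earlier results of these data known.

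Among these other targets in Huh7, the glycolytic enzyme gene PGK1 stood at 473 ± 3.2 CPM in 2D, 281 ± 1.3 in Inject-Embed and 672 ± 10 in Mix-Embed (SD, n = 2), and the clock repressor gene BHLHE40 at 71 ± 5.9, 35.9 ± 0.85 and 149 ± 3.1 CPM. ENO1, the glycolytic enzyme enolase, rose in Mix-Embed (0.49 ± 0.03). The transferrin receptor gene TFRC fell in both Huh7 gel cultures (-0.89 ± 0.05 and -0.58 ± 0.04), as PLOD2, a lysyl hydroxylase of collagen, did in Inject-Embed (-0.97 ± 0.05) and JMJD1C, a demethylase relative, in Mix-Embed (-0.36 ± 0.08). Against the trend in Inject-Embed, HMOX1, heme oxygenase 1, rose from 19.7 ± 1.2 to 36.7 ± 0.49 CPM, and IGFBP3, a carrier of insulin-like growth factors, from 2.14 ± 0.27 to 3.96 ± 0.89 CPM. SLC2A3, a glucose transporter, was called on 3 and 11 counts, a ratio of 4.38 (95% counting interval 1.16 to 24.5). PGF, a placental relative of VEGFA, was the only one called lower in Huh7 Mix-Embed than in Inject-Embed (-0.35 ± 0.13, edgeR adjusted p = 0.0371), a call that DESeq2 did not make.

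In HLF, the host transcript of miR-210, MIR210HG, rose most, from 2.59 ± 0.1 CPM in 2D to 14 ± 1.1 in Inject-Embed and 12.7 ± 0.63 in Mix-Embed (SD, n = 2; 2.43 ± 0.20 and 2.29 ± 0.20 on the log2 scale). LDHA, lactate dehydrogenase A, and CCNG2, a cyclin, rose in Inject-Embed (0.33 ± 0.04 and 0.92 ± 0.10), and ZNF395, a zinc finger gene, and BHLHE40 rose in Mix-Embed (1.14 ± 0.11 and 0.71 ± 0.07). In the other direction, IGFBP3 fell in Inject-Embed and Mix-Embed (-1.75 ± 0.07 and -1.80 ± 0.07). The retinoid-induced receptor gene GPRC5A fell in Inject-Embed (-1.23 ± 0.07) and TFRC in Mix-Embed (-0.76 ± 0.05). Between the HLF gel cultures, ZNF395, the hexokinase gene HK2 and MAFF, a small MAF factor, were higher in Mix-Embed (0.42 ± 0.10, 0.23 ± 0.06 and 0.39 ± 0.12), and the stanniocalcin gene STC2 and TFRC were lower (-0.39 ± 0.06 and -0.29 ± 0.05).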

How the data were processed

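Poly-A RNA of 12 libraries (6 groups of 2 biological replicates, per the series' design text) was sequenced. The authors deposited raw read counts per gene and FPKM, made with FastQC, Trimmomatic, STAR 2.7.9a and featureCounts on GRCh38, per the submitters' processing notes. For the counting, its strand setting and its gene annotation's release were not given in the sources used here; gene positions are as the deposited tables give them. The deposited FPKM values equal count over gene length and library total within a relative gap of 1.5e-08, over 167453 values of at least 20 counts. Column names that abbreviate the culture were matched to Mix-Embed through the library names in the labels.

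Counts were fitted over all 12 libraries with edgeR 4.0.16 in R 4.3.3 (TMM, filterByExpr with a minimum count of 10, quasi-likelihood test, 19342 genes tested, Benjamini-Hochberg adjusted p under 0.05). SE is the absolute log2 fold change over the square root of F. The CV between replicates was 4.59%. The labels do not say whether replicates came from separate passages, so p-values measure the spread between these libraries. Alternatives were DESeq2 1.42.0, limma 3.58.1 on log2(FPKM + 1) and log2(FPKM + 0.1), RLE scaling, library totals alone, no filter, each line alone, a replicate block, and leaving out each library. The code was tested on simulated data. Plots used matplotlib 3.10.9.

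The 36 genes, the other lists and the tests were chosen with earlier results of these data known. Values in every library are given for 12 fixed genes and for each gene with a called log2 fold change of at least 1 within a line. From the other lists, each within-line comparison names up to 3 called genes per direction with the smallest adjusted p. The results of 1 gene among those so chosen are left out here. Protein sequences were not used here.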

Additional observations from a re-analysis of the deposited data

Results flagged for a closer look

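The results below are differences between Huh7 and HLF in the response to a culture, each the Huh7 log2 fold change minus the HLF one, tested as an interaction with edgeR's quasi-likelihood test and Benjamini-Hochberg adjustment. The number of genes of the set with a called difference was 27 of 36 for Inject-Embed against 2D, 18 for Mix-Embed against 2D and 24 for Mix-Embed against Inject-Embed. Of all genes, 11.7% were called higher in Huh7 and 13.1% lower for Inject-Embed against 2D. The shares were 10.2% and 10.2% for Mix-Embed against 2D, and 5.95% and 4.62% for Mix-Embed against Inject-Embed. Some calls of the set were lost when a single library was left out, as given in the results above. How many of all genes had opposite calls in the lines was not counted.

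For Inject-Embed against 2D, 17 genes fell in Huh7 and rose in HLF, each call made within its line. Among regulators and demethylases the differences were -0.77 for EGLN1, -1.20 for MXI1, -0.88 for WSB1, -1.37 for KDM3A and -1.07 for KDM4B. The vessel growth factor VEGFA had -0.97. Among genes for glucose use they were -0.85 for SLC2A1, -2.42 for PDK1 and -2.74 for PFKFB4, and among mitophagy receptors -1.52 for BNIP3 and -1.46 for BNIP3L. The collagen prolyl hydroxylases had -1.85 for P4HA1 and -1.42 for P4HA2. The remaining genes had -1.22 for INSIG2, -0.51 for NDRG1, -1.73 for DDIT4 and -3.16 for PPFIA4. The edgeR adjusted p of these 17 lay between 1.09e-22 and 4.19e-05. The HLF rises of 3 of them within the line were lost when some single library was left out. For MXI1 this was any 1 of its 4 libraries, and for KDM4B HLF 2D replicate 1 or either Inject-Embed replicate. For NDRG1 it was HLF 2D replicate 2 or Inject-Embed replicate 1. The MXI1 rise was also lost with RLE scaling, no filter, DESeq2, a replicate block and limma at either FPKM offset (adjusted p 0.0506 to 0.0958). Limma on log2(FPKM + 1) and log2(FPKM + 0.1) also lost the HLF rise of KDM4B (adjusted p = 0.103 and 0.0863). The same 2 fits lost the Huh7 fall of NDRG1 (adjusted p = 0.0567 and 0.114).

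For Mix-Embed against 2D, 3 genes rose in Huh7 and fell in HLF. The differences were 0.59 for CITED2, 1.52 for PFKFB3 and 1.19 for NDRG1 (edgeR adjusted p = 3.67e-07, 3.98e-20 and 9.74e-13). The HLF falls behind CITED2 and PFKFB3 were lost when some single library was left out: CITED2 without HLF 2D replicate 1 or HLF Mix-Embed replicate 1 (adjusted p = 0.111 and 0.092), PFKFB3 without any 1 of its 4 libraries (adjusted p 0.0501 to 0.295). For Mix-Embed against Inject-Embed, 4 genes were higher in Huh7 and lower in HLF, with 1.11 for PFKFB3, 2.18 for LOX, 1.10 for LOXL2 and 1.70 for NDRG1 (edgeR adjusted p between 1.39e-17 and 2.97e-06). The HLF fall of LOXL2 was lost without HLF Mix-Embed replicate 1 (-0.19). It was also lost with limma on log2(FPKM + 1) and log2(FPKM + 0.1) (adjusted p = 0.11 and 0.301). That of LOX was lost with limma on log2(FPKM + 1) (adjusted p = 0.0738).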

How the results depend on the processing

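The totals of called genes, both directions together, stayed within 1.5 times their values under the alternatives run, with the exceptions below; counts in a single direction moved further in places, by the values given in the results above and, for the line difference in Mix-Embed against 2D with limma on log2(FPKM + 0.1), from 7 to 4 higher and from 11 to 7 lower. In HLF Mix-Embed against Inject-Embed, 4 lower became 2 with limma on log2(FPKM + 1). In HLF Mix-Embed against Inject-Embed the 11 called genes became 7 with limma on log2(FPKM + 1), and lay between 7 and 11 when single libraries were left out, 7 without HLF Inject-Embed replicate 1. For the line difference in Mix-Embed against 2D, the 18 called genes became 11 with limma on log2(FPKM + 0.1). PPFIA4 in that comparison went from -0.82 to 0.041 (adjusted p = 0.827) with limma on log2(FPKM + 1). The cause was not tested. Leaving out a library changed no direction of a called gene and lost the call in 94 gene-level results, with 1757 on the same side of the threshold and 21 newly called. With library totals in place of TMM, the median of all genes between the lines in 2D moved to -0.18, and of the 36 genes 26 were higher and 8 lower in Huh7. The share of higher calls over all genes went from 50.6% to 63.3% in HLF Inject-Embed and from 49.8% to 62.4% in HLF Mix-Embed, where 21 and 20 of the set rose and 2 and 5 fell. It went from 58.3% to 47.1% in Huh7 Mix-Embed against Inject-Embed, where 30 of the set were higher. For the line differences it went from 49.9% to 37.1% in Mix-Embed against 2D (5 of the set higher, 13 lower) and from 56.3% to 38.8% in Mix-Embed against Inject-Embed (24 higher, 1 lower).

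The correlation of same-numbered deviations was -0.0367 to 0.029 over 6 pairs of groups. Such values cannot show whether same-numbered libraries were prepared together. With a replicate block the called genes numbered 29, 25 and 30 in Huh7 (Inject-Embed and Mix-Embed against 2D, and between gels), 22, 25 and 11 in HLF, 32 between the lines in 2D, and 27, 17 and 24 for the line differences. With 2 libraries per group and 12325877 to 16041906 counts each, folds of CA9, CA12 and EGLN3 in HLF are limited by depth.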
